A study of Homo sapiens with 6 samples.

Results

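Metallothioneins are small cytosolic proteins, rich in cysteine, that bind zinc and copper and also capture toxic metals such as cadmium. In liver they buffer zinc, and their genes are classic targets of the zinc-sensing transcription factor MTF1, which binds short metal response elements (MREs) near the transcription start. Glucocorticoids and oxidative stress are other known inducers. The family described here has 8 genes, MT1A, MT1E, MT1F, MT1G, MT1H, MT1M, MT1X and MT2A, of 18030 genes in the tables, found by Entrez gene identifier. They were chosen by name with their fold changes between these same groups already known, several being among the largest, so their differences between the groups are given as a description and not as a test. All 8 were present in the tables, and 7 of them held at least 10 counts in every library. The exception, MT1H, was close to silent.

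RNA was sequenced from Huh-7, a human hepatocellular carcinoma cell line, in 3 libraries labelled as ALKBH5 overexpression (oeALKBH5) and 3 labelled as control with genotype WT. ALKBH5 removes the N6-methyladenosine mark from RNA. The protocol describes electroporation of an ALKBH5 plasmid (3 pulses of 1250 V and 20 ms) and RNA extraction 60 h later. The same text stands beside the control samples, the series design calls them parental cells, and every sample is marked untreated, so the labels do not say whether controls were electroporated or given an empty plasmid. The titles call the replicates biological, but whether each had its own culture or transfection is not stated. The p-values therefore reflect only how much these libraries scatter within their groups, and that scatter could be technical. The cells are a single line, and the share that took up the plasmid was not given.

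Libraries held 18607084 to 19378030 estimated counts. ALKBH5 mRNA was 110 to 169 CPM (counts relative to the scaled library size) in oeALKBH5 and 70.5 to 75.5 CPM in control libraries, 1.87-fold higher (log2 fold change 0.90, SE 0.178, edgeR adjusted p = 0.0155). Leaving out control replicate 2 or 3, or fitting a replicate block, ended that call (largest adjusted p = 0.0590). Of 14168 tested genes 2949 were higher and 3115 lower at an adjusted p under 0.05, and 4269 and 2047 with library size alone in place of scaled sizes. The 6 hepatocyte markers summed to 18721 to 20213 CPM in oeALKBH5 and 28638 to 29135 CPM in control. Marker sums were 6.10 to 7.21 against 7.01 to 8.27 CPM for 3 leukocyte genes, 11.3 to 11.9 against 17.3 to 21.0 CPM for 3 endothelial genes, and 18.7 to 19.9 against 12.04 to 12.32 CPM for 4 fibroblast and stellate genes. That last set did not move together. COL1A1 and COL1A2 were higher (log2 fold change 1.07 and 0.92), LUM was lower (-0.55), and DCN had too few counts to be tested. In the endothelial set PECAM1 was lower (-0.70), and VWF and CDH5 had too few counts to be tested. In the leukocyte set PTPRC (-0.20) and CD14 (-0.21) were not called, and CD3E had too few counts. None of these 16 markers was at 0 in all libraries. Their part in the metallothionein differences was not tested, and in bulk RNA fewer cells of a type cannot be told apart from less RNA per cell.

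All 8 genes lie on chromosome 16 within 75998 bases, from 56608199 to 56684196 (GENCODE release 29, GRCh38), with MT2A at one end and MT1X (56682424 to 56684196) at the other. MT1G is on the minus strand and the other 7 are on the plus strand. Each coding sequence holds 20 cysteine codons among 61 codons, or 62 in MT1G. Between pairs of members, coding identity ran from 88.7% to 94.6% over 28 pairs, with a median of 91.9%. Some coding sequences are shown because the degree of identity bears on how reads were divided. They are those of MT2A, the most abundant member, and MT1X, the member with the largest difference between groups. That of MT1B, a relative inside the same cluster that is no member, is shown beside them. Capitals mark bases that differ from MT2A at the same position, 14 in MT1X and 21 in MT1B (GENCODE release 29 transcripts).

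MT2A: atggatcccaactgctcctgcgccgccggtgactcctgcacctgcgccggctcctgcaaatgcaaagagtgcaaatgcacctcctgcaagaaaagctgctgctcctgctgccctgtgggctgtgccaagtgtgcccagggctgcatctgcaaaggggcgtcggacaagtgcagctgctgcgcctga
MT1X: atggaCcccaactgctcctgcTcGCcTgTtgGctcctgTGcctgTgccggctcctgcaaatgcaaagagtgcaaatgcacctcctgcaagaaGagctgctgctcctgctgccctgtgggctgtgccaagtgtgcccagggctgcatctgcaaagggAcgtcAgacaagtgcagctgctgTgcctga
MT1B: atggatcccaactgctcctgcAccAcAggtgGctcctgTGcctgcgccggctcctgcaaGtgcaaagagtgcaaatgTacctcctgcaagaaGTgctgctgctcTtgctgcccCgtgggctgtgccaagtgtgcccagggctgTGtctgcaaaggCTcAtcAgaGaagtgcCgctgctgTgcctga

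Identity was not spread evenly. The longest exact run shared between any 2 members was 96 bases, between MT1G and MT1X. Of all 50-base windows in the MT1G transcript 80.1% occurred in none of the other 8 transcripts compared, against 85.3% for MT1X and 95.1% to 99.5% for the other 6 members. Every such window of MT1B occurred in MT1B alone. These windows came from GENCODE transcripts, 786 bases long for MT2A and 396 for MT1A, whereas the counts are per RefSeq transcript. By oeALKBH5 means MT2A had 10670 estimated counts at 1620 FPKM, and MT1A had 124 at 19.04 FPKM. These ratios were nearly equal, so the quantified lengths were not those compared here. Shares for the longer GENCODE transcripts may therefore be too high. Estimated counts divide shared reads by a model, and MT1G and MT1X had the smallest shares among the GENCODE transcripts. How far shared reads moved the values of any member was not tested.

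Promoter windows from 250 bases before to 50 bases after the start were matched for 3 of the 8 members, MT2A, MT1X and MT1H, and for MT1B (RefSeq, GRCh38.p14). The windows of MT2A (chr16:56608334-56608633, plus strand), MT1X (chr16:56682220-56682519, plus strand) and MT1B (chr16:56651636-56651935, plus strand) are shown because MTF1 is known to act through MREs. Capitals mark the MRE core, searched as TGCACNC and TGCGCNC on both strands.

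MT2A: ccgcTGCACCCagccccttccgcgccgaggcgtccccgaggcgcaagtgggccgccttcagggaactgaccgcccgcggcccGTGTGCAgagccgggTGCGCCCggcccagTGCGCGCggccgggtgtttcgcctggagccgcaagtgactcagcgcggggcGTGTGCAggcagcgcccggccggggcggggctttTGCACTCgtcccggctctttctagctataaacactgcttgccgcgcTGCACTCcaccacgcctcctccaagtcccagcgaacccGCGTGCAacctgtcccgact
MT1X: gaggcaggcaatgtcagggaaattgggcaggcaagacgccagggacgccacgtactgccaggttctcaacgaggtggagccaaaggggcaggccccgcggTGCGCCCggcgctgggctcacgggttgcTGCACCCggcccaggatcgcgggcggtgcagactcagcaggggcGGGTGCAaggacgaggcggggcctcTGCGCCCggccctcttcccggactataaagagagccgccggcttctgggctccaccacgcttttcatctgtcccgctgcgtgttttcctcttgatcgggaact
MT1B: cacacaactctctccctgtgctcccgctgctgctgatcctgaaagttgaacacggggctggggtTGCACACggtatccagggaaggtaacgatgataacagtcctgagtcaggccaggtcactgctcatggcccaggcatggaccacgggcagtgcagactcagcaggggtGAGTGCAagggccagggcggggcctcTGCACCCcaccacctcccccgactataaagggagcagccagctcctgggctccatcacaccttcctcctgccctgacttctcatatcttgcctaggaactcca

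The MRE core occurred 8 times in the MT2A window, 4 times in that of MT1X, 8 times in that of MT1H and 3 times in that of MT1B. Among 35116 promoter windows of this length, 29.6% held at least 1 match, 2.3% at least 3, 0.601% at least 4 and 0.0199% at least 8. MT2A, the most abundant member, and MT1H, the least abundant, had the same number of matches to this core. Windows were matched for 3 of the 8 members, and the relation of matches to level was not tested. With the core followed by GG the matches were 4, 3, 2 and 1 for MT2A, MT1X, MT1H and MT1B, and 3.48% of windows held that form. The TATA box, searched as TATAAA on both strands, was present once in the windows of MT2A, MT1X and MT1B and was not found in that of MT1H; 11.5% of all windows held it. One antioxidant response element, searched as TGACNNNGC, was found in each of MT2A, MT1X and MT1B and 0 in MT1H, beside 13.3% of windows. A match is a stretch of letters, not a measured binding site.

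The summed level of the family was 3101, 2731 and 2856 FPKM (fragments scaled to transcript length and library size) in oeALKBH5 replicates 1, 2 and 3. In control replicates 1, 2 and 3 it was 775, 755 and 759 FPKM. The lowest oeALKBH5 library was 3.52-fold above the highest control library. On estimated counts the sum was 20574, 18011 and 19064 against 5290, 5176 and 5212, a share of 0.0968% to 0.110% of all counts against 0.0268% to 0.0275%. In CPM it was 1000 ± 67.5 in oeALKBH5 and 278 ± 5.59 in control (SD, n = 3 each), and the log2 fold change of the sum was 1.85 (SE 0.051). Without MT2A, the remaining 7 genes summed to 445 ± 31.9 against 99.8 ± 1.24 CPM, so the difference did not rest on the most abundant member.

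In control cells MT2A stood far above the rest of the family. It was listed at 510, 480 and 487 FPKM in the 3 control libraries, 153rd of 18030 genes by mean FPKM. MT1E followed at 78.8 ± 4.71 FPKM, then MT1F at 60.3 ± 1.05 and MT1G at 60.2 ± 0.976 FPKM (SD, n = 3), whose libraries overlapped. MT1M, at 53.6 ± 1.33 FPKM, lay below MT1G with no overlap. MT1X (8.91 ± 1.01 FPKM) and MT1A (8.85 ± 1.84 FPKM) had overlapping levels near the bottom. MT1H was last, at 0.28, 0 and 0.15 FPKM.

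In oeALKBH5 cells the order changed at a single gene, MT1X. MT2A (1620 ± 116 FPKM), MT1E (552 ± 24.2 FPKM) and MT1F (245 ± 17.8 FPKM) kept the first 3 places, and MT2A moved from 153rd to 24th among all genes by mean FPKM. MT1X came next at 195 ± 41.0 FPKM, overlapping MT1F above it and MT1G (150 ± 15.5 FPKM) below it, although in each of the 3 libraries it was under MT1F and over MT1G. MT1M (115 ± 10.7 FPKM), MT1A (19.04 ± 2.80 FPKM) and MT1H (0.477 ± 0.263 FPKM) followed. MT1X and MT1A, with overlapping levels in control cells, were thus far apart in oeALKBH5 cells.

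**Figure D1:**
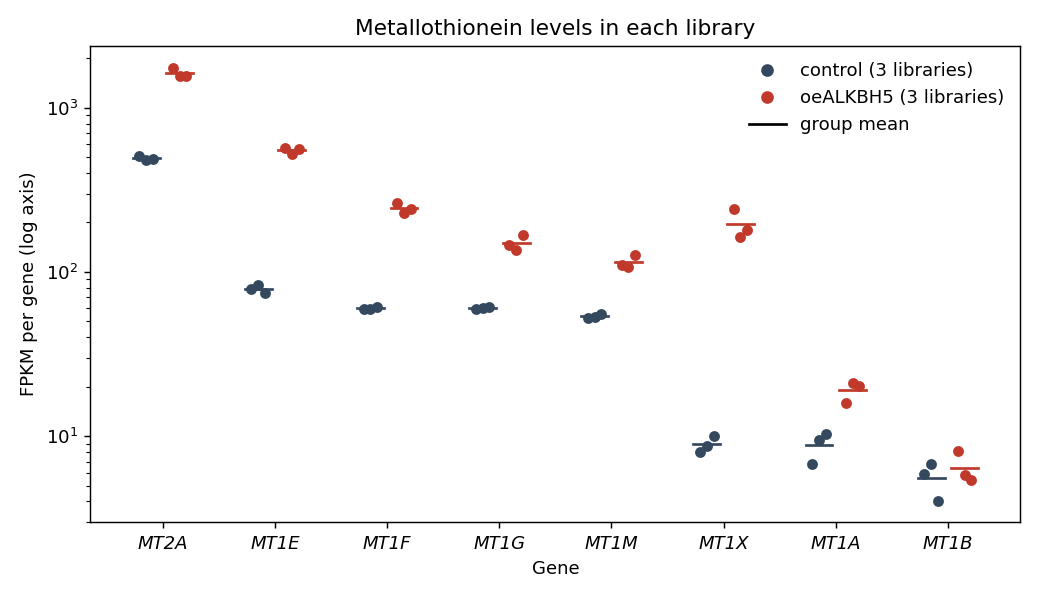
FPKM per gene (log axis) in each library for 7 members and MT1B; points are libraries (3 control in dark blue, 3 oeALKBH5 in red) and lines are group means. The groups are apart for the 7 members and overlap for MT1B, and MT1X moves from 8.91 to 195 FPKM; MT1H, with a library at 0, is not drawn.

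MT1X had the largest difference. It was listed at 241, 163 and 181 FPKM in oeALKBH5 replicates 1, 2 and 3 and at 8.03, 8.70 and 10.0 FPKM in the controls. Replicate 1 was the highest oeALKBH5 library, and the lowest was still 16.3-fold above the highest control. The fitted log2 fold change was 4.37 (SE 0.239), or 20.6-fold, the largest of the 12434 tested genes whose mean log2 CPM reached 1. With less abundant genes included, 1 of 14168 had a larger value.

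MT1E was second in the family. Its values were 570, 524 and 562 FPKM in oeALKBH5 and 78.7, 83.6 and 74.2 FPKM in control libraries. These 2 groups were tight and far apart, with a log2 fold change of 2.73 (SE 0.058), 6.65-fold. MT1F was listed at 264, 230 and 241 FPKM against 59.7, 59.7 and 61.5 FPKM. Its log2 fold change was 1.95 (SE 0.0631), 3.85-fold, again with no overlap.

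MT2A, the isoform that supplies most metallothionein mRNA in these cells, was listed at 1753, 1548 and 1558 FPKM in oeALKBH5 against 510, 480 and 487 FPKM in control. All oeALKBH5 libraries were above all controls. The log2 fold change was 1.64 (SE 0.0532), 3.11-fold, so the most abundant gene was in the middle of the family by fold change.

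MT1G, MT1M and MT1A differed least among the members that could be fitted. MT1G was at 145, 137 and 167 FPKM against 59.1, 60.7 and 60.8 FPKM, a log2 fold change of 1.23 (SE 0.0747). MT1M was at 110, 108 and 127 FPKM against 52.7, 53.0 and 55.1 FPKM, a log2 fold change of 1.02 (SE 0.0753). In both genes oeALKBH5 replicate 3 was the highest library, whereas replicate 1 was the highest for MT1X, MT2A, MT1E and MT1F. MT1A was at 15.9, 21.2 and 20.1 FPKM against 6.77, 9.51 and 10.3 FPKM. Its log2 fold change was 1.03 (SE 0.162), with replicate 1 the lowest oeALKBH5 library, 1.54-fold above the highest control. Thus MT1X and MT1A, which had overlapping levels in control cells, differed between the groups by 20.6-fold and 2.04-fold.

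MT1H had 5.09, 2.21 and 2.02 estimated counts in oeALKBH5 libraries and 1.88, 0 and 1 in controls. In FPKM its lowest oeALKBH5 library (0.31) was just above its highest control (0.28), as in estimated counts (2.02 against 1.88). In CPM, computed from counts rounded to whole numbers, the groups overlapped. These counts are too few for a fold change, and the gene did not pass the filter on low counts.

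By the fit over all genes, the 7 members that passed the filter were all higher at an adjusted p under 0.05, beside 20.8% of all tested genes (42.8% passed in either direction). All 7 also had 3 oeALKBH5 libraries above 3 controls in CPM, beside 25.9% of tested genes, and a log2 fold change of at least 1, beside 1.36%. The median log2 fold change was 1.64 over these 7 and 0.01 over all tested genes. Because this contrast chose the family, nothing is read from those counts.

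The make-up of the family shifted along with its sum. MT1X took 7.78%, 5.97% and 6.33% of family FPKM in oeALKBH5 replicates 1, 2 and 3 and 1.04%, 1.15% and 1.32% in controls. MT1E went from 10.3% ± 0.667 to 19.1% ± 0.654 (SD, n = 3). MT1F went from 7.90% ± 0.199 to 8.45% ± 0.0641, a small shift with no overlap. The share of MT2A was lower, 55.9% ± 1.19 against 64.5% ± 1.15, and so were those of MT1G (5.18% against 7.89%), MT1M (3.99% against 7.02%) and MT1A (0.663% against 1.16%). A lower share here goes with a higher level, since all 7 of these genes were above their controls.

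**Figure D2:**
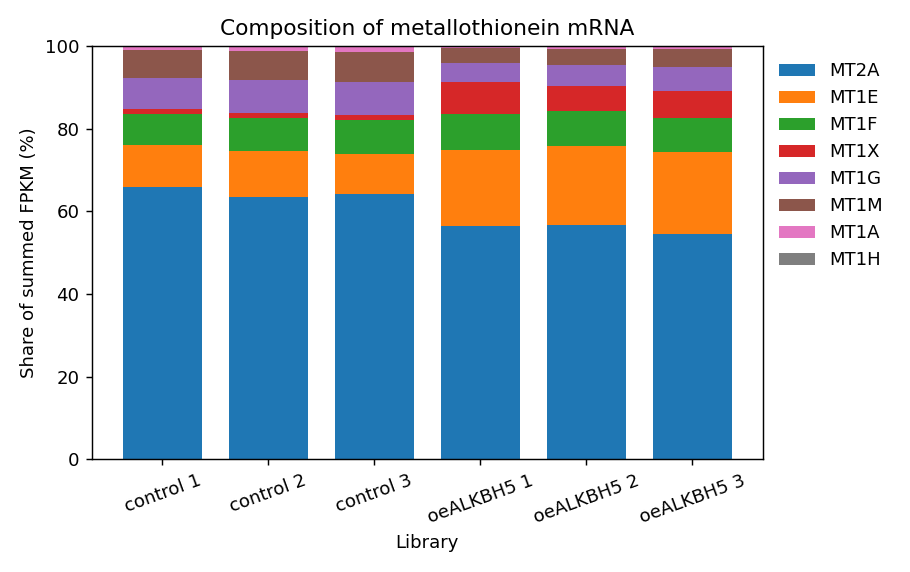
Share of summed metallothionein FPKM (%, vertical axis) taken by each member in each of the 6 libraries. MT2A is the largest part of every bar, and the MT1E and MT1X parts are wider in the 3 oeALKBH5 libraries, MT1X at 5.97% to 7.78% against 1.04% to 1.32%.

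The tables held 2 transcripts each for MT1E, MT1F and MT1G and 1 for each other member. For MT1G both were abundant by the model that divides shared reads. NM_001301267.2 held 76.4% ± 3.71 of the gene's counts in oeALKBH5 and 76.3% ± 5.13 in control. Both MT1G transcripts were higher in all oeALKBH5 libraries. How far shared reads set this split was not tested. In MT1E the main transcript NM_175617.4 held 98.4%, 98.7% and 98.9% in oeALKBH5 and 99.3%, 100% and 99.3% in control, with no overlap. The minor one, NM_001363555.2, had 59.9, 43.7 and 41.6 counts there and 3.58, 0 and 3.64 in controls. The minor MT1F transcript, NM_001301272.1, took 4.28% to 4.92% of the gene in oeALKBH5 and 1.98% to 4.77% in control, and these ranges overlapped. Gene values of the 3 genes therefore followed their main transcripts.

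MT1B, which lies between MT1A and MT1F, was the other metallothionein row found in the tables; MT1HL1, MT1L, MT3 and MT4 were not analysed here. It was listed at 8.09, 5.79 and 5.41 FPKM in oeALKBH5 and at 5.89, 6.75 and 4.05 FPKM in control. The groups overlapped, and the gene did not pass (log2 fold change 0.13, SE 0.227, edgeR adjusted p = 0.682). Its sign turned without oeALKBH5 replicate 1 (-0.07) and without control replicate 3 (-0.06). In control cells its mean of 5.56 FPKM lay below those of MT1A and MT1X, and it rested on 27.0 to 44.9 estimated counts there. The difference between MT1B and the members was not itself tested.

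Genes around the cluster were taken by position, within 500 kb on either side: 12 were in the tables and 9 were tested. The nearest tested genes were BBS2, a component of the ciliary BBSome, at 87916 bases before the cluster, and NUP93, a nuclear pore protein, at 45909 bases after it. BBS2 had 16.2 to 18.4 CPM in oeALKBH5 and 17.7 to 18.8 in control (log2 fold change -0.08, SE 0.0779, edgeR adjusted p = 0.459). NUP93 had 66.5 to 75.3 against 65.8 to 70.2 CPM (0.06, SE 0.056, edgeR adjusted p = 0.439). CPNE2, a calcium-dependent phospholipid-binding copine 408341 bases away, was the neighbour that rose (0.40, SE 0.0617, edgeR adjusted p = 3.00e-05), so 1 of 9 passed higher, beside 20.8% of tested genes. By edgeR 0 of 9 passed lower, with 1 at an unadjusted p under 0.05; DESeq2 also gave 0 and limma-voom 1. Without oeALKBH5 replicate 3 the counts were 2 higher and 1 lower.

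**Figure D3:**
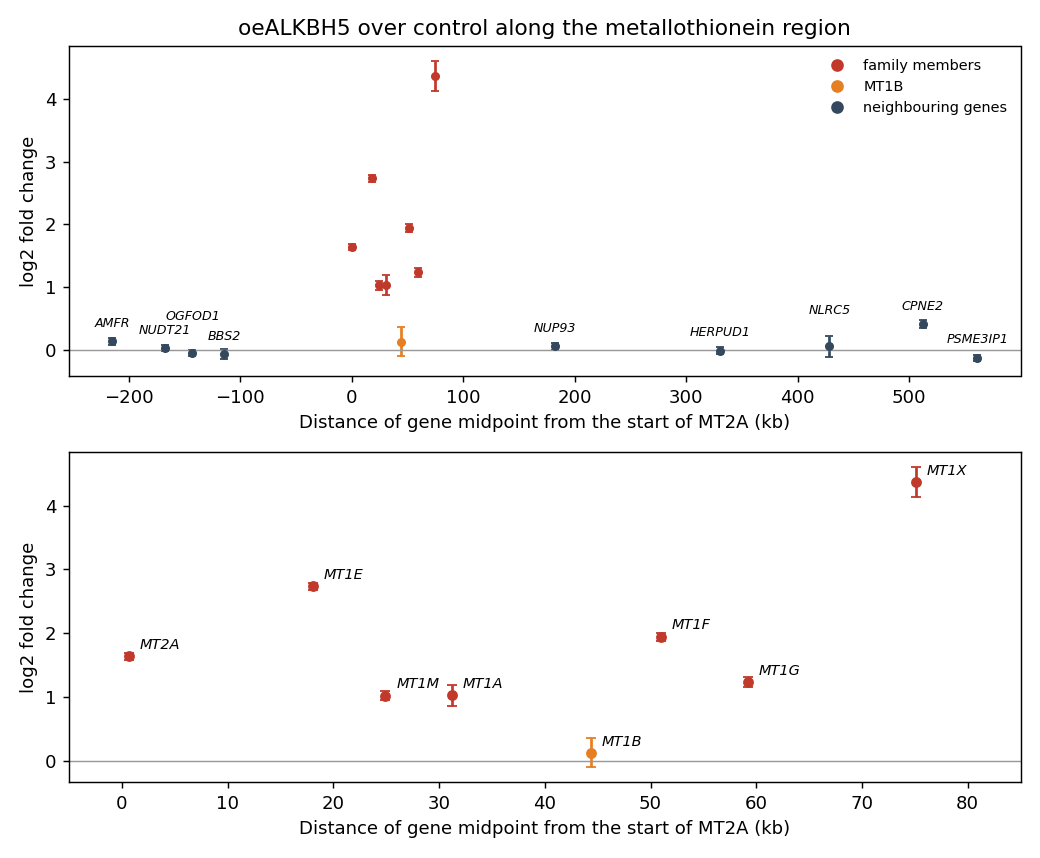
Log2 fold change of oeALKBH5 over control (points, with standard error bars) against distance of the gene midpoint from the start of MT2A in kb, for the whole window (top) and the cluster alone (bottom). The 7 fitted members lie between 1.02 and 4.37, MT1B at 0.13, and the tested neighbours between -0.13 and 0.40.

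Zinc itself is moved by ZnT exporters (SLC30 genes), which lower cytosolic zinc, and ZIP importers (SLC39 genes), which raise it. These lists, like the stress, glucocorticoid and copper lists below, were chosen with earlier results of these data known. Their counts and adjusted p-values are therefore given as a description. SLC30A1, the zinc exporter of the plasma membrane and a known MTF1 target like the metallothioneins, had 71.2, 65.2 and 67.6 CPM in oeALKBH5 and 29.9, 28.0 and 28.2 CPM in control (1.24, SE 0.0585, edgeR adjusted p = 2.38e-12). Its difference was 2.37-fold, while the fitted members ran from 2.03-fold (MT1M) to 20.6-fold (MT1X). In all, 3 of 9 tested ZnT genes rose, beside 20.8% of all genes, with SLC30A2 at 1.21 (SE 0.356, at 0.783 to 1.09 CPM in oeALKBH5) and SLC30A4 at 0.58. The count was 1 by DESeq2 and 1 without control replicate 1, with SLC30A1 the gene that passed. SLC30A4 also did not pass when oeALKBH5 replicate 1 or 3 or control replicate 2 was left out (adjusted p up to 0.149). By edgeR 0 fell, with 1 at an unadjusted p under 0.05, and 0 by DESeq2 and limma-voom.

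Of 12 tested ZIP genes 8 fell, beside 22% of all genes, and the count was 5 without control replicate 3 and 5 with library size alone. SLC39A4, the zinc importer ZIP4, had 3.48, 3.53 and 2.19 CPM in oeALKBH5 against 16.2, 16.3 and 18.2 CPM in control (-2.46, SE 0.132, edgeR adjusted p = 2.43e-11). SLC39A10, the importer ZIP10, which MTF1 is known to repress, had 20.7 to 21.8 against 37.8 to 43.2 CPM (-0.91, SE 0.0691, edgeR adjusted p = 3.15e-09). The other ZIP genes that fell differed little, with log2 fold changes from -0.37 to -0.14. The median over the 12 tested ZIP genes was -0.18. By edgeR 0 ZIP genes rose, with 1 at an unadjusted p under 0.05 and 0 by DESeq2 and limma-voom; with library size alone 2 rose.

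MTF1 mRNA itself differed little. It had 21.4, 20.0 and 18.0 CPM in oeALKBH5 and 15.9, 17.6 and 17.5 CPM in control (0.22, SE 0.0814, edgeR adjusted p = 0.0358). DESeq2 did not make the call, nor did edgeR with any 1 library left out other than oeALKBH5 replicate 3 (adjusted p from 0.00714 to 0.158 over all alternatives). Activity of the MTF1 protein was not measured.

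**Figure D4:**
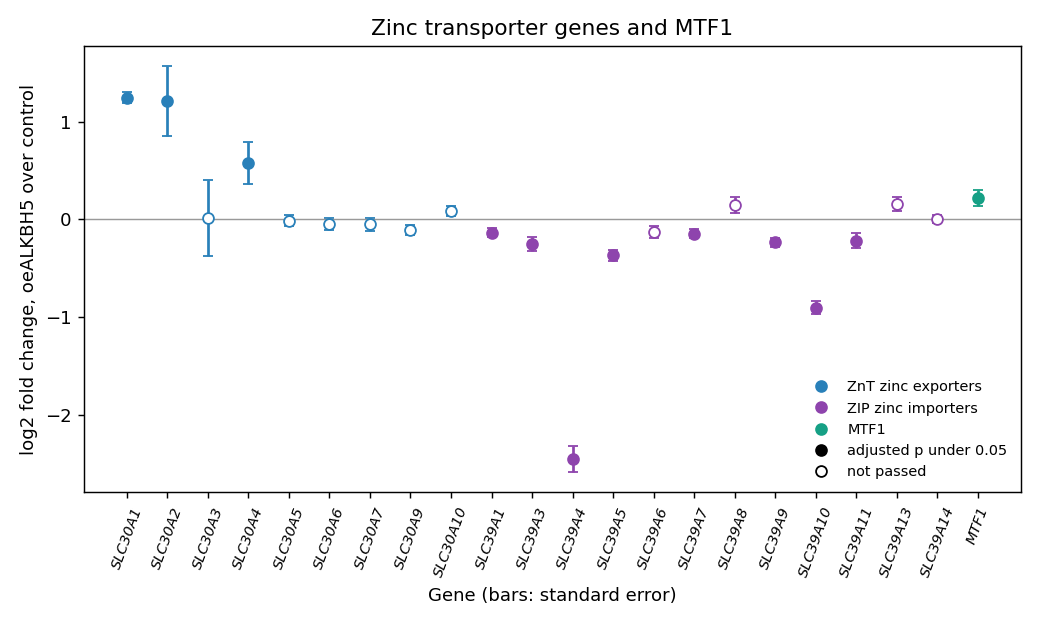
Log2 fold change of oeALKBH5 over control with standard error bars for tested ZnT exporters, ZIP importers and MTF1; filled points passed at an adjusted p under 0.05. SLC30A1 stands at 1.24, SLC39A10 at -0.91 and SLC39A4 at -2.46.

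Oxidative stress and glucocorticoids are other known inducers of metallothioneins, and copper is another metal that they bind. Of 11 oxidative and heavy metal stress genes 5 fell, beside 22% of all genes, among them the sulfiredoxin SRXN1 (-0.45, SE 0.0531) and the quinone reductase NQO1 (-0.45, SE 0.0599), and also GCLM, HMOX1 and SLC7A11, and 6 of the 11 did not pass. By edgeR 0 rose, with 1 at an unadjusted p under 0.05, and 0 by DESeq2 and limma-voom; 1 rose without oeALKBH5 replicate 2 and 2 with library size alone or the replicate number as a block. HSPA1A, the inducible HSP70 that answers to cadmium, was at 0.25 (SE 0.147, edgeR adjusted p = 0.247). Of 11 glucocorticoid-induced genes 4 rose, the clock gene PER1 (0.38, SE 0.0688), ERRFI1 (0.28, SE 0.0517), FKBP5 and ZBTB16, and 2 fell, CEBPD (-0.39, SE 0.0702) and TAT (-0.39, SE 0.139), beside 20.8% of all genes higher and 22% lower; the other 5 did not pass. FKBP5 did not pass by DESeq2 or when oeALKBH5 replicate 2 or 3 or control replicate 1 or 3 was left out (adjusted p up to 0.121). TAT, the tyrosine aminotransferase of liver, did not pass when oeALKBH5 replicate 2 or 3 or control replicate 1 or 2 was left out (adjusted p up to 0.130). TAT also did not pass by DESeq2 (adjusted p = 0.102), with library size alone or on either FPKM scale. Of 9 copper handling genes 1 rose, the copper ATPase ATP7B (0.17, SE 0.0516), which did not pass when control replicate 3 was left out (adjusted p = 0.0555). In the copper list 4 fell, the superoxide dismutase SOD1 (-0.27, SE 0.055), the copper chaperone COX17 (-0.27, SE 0.0625), ATP7A and SLC31A1, and 4 did not pass, beside 20.8% of all genes higher and 22% lower. SLC31A1 did not pass with library size alone (-0.061, adjusted p = 0.317), on either FPKM scale, or when oeALKBH5 replicate 2 or control replicate 2 or 3 was left out. ATP7A did not pass by DESeq2 (adjusted p = 0.0514).

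Among the genes whose profile over the 6 libraries was most like the family sum, by the root mean square difference of control-centred log2 CPM over 12427 genes, were LIF (0.166), IGFBP1 (0.207), CNN1 (0.246) and LGI4 (0.266). LIF, a cytokine of the interleukin-6 group, had 23.5, 18.1 and 18.4 CPM in oeALKBH5 and 4.73, 6.49 and 5.47 CPM in control. In LIF, as in the family sum and in ALKBH5 itself, oeALKBH5 replicate 1 was the highest library. The genes most like the sum were chosen for likeness over these same libraries, so their values are a description.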

How the data were processed

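Count and FPKM tables of the whole series were used, with 6 columns each, 1 per library. The deposited estimated counts are per RefSeq transcript, not whole numbers and not scaled between libraries. The FPKM values of the same 80668 transcripts were computed by the authors. The submitters' processing notes name RSEM 1.2.8, Bowtie2 2.2.5, HISAT2 2.1.0 and the build GRCh38.p13, without roles; for filters, read length and strandedness no source used here gives an answer.

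Values of transcripts with one Entrez identifier were added up, and the count totals rounded to whole numbers. Symbols came from RefSeq (GRCh38.p14) for 17881 of 18030 genes. Genes were fitted with edgeR 4.0.16 (R 4.3.3; TMM scaling, filter at a minimum count of 10, robust quasi-likelihood, group as the single term, two-sided, Benjamini-Hochberg over all tested genes), and passed at an adjusted p under 0.05. Each SE is the size of the log2 fold change divided by the root of its F statistic. limma 3.58.1 and DESeq2 1.42.0 gave alternatives, and the FPKM fits used genes with at least 1 FPKM in 3 libraries. Other alternatives were scalings, filters, the replicate block and leaving out each library. The fit was also run on simulated counts in which a small share of genes changed, evenly in both directions. There edgeR recovered 84% to 98% of genes changed by 1.5-fold to 8-fold, with 7 false calls. In the real data 42.8% of tested genes passed, so that run does not bear on the choice of scaling. No 2 libraries agreed within counting noise (chi-square per degree of freedom at least 1.66). Sequence comparisons used Biopython 1.88 and figures matplotlib 3.10.9.

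Named genes were all members, MT1B, MTF1, SLC30A1, SLC39A4, SLC39A10, the 2 called genes with the smallest p in each list and direction, the nearest and called neighbours of the cluster, and the 5 genes most like the family sum (pseudocount 0.5 CPM, mean log2 CPM of at least 1), of which 1 is not reported here. SLC30A4, GCLM, HMOX1, SLC7A11, HSPA1A, FKBP5, ZBTB16, ATP7A and SLC31A1 were named after their values were seen. The members and lists were chosen with earlier results of these data known.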

Additional observations from a re-analysis of the deposited data

How the results depend on the processing

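The 7 fitted members and their sum were higher in oeALKBH5 in each of the 16 alternatives run. The log2 fold change of the sum was 1.93 with library size alone and 1.92 on log2(FPKM + 1) and log2(FPKM + 0.1), and 1.80 to 1.90 with 1 library left out; with library size alone MT1E was at 2.81 and MT1F at 2.03. Without 1 library MT1X ran from 4.19 to 4.49 and MT1A from 0.87 to 1.15. Genes called lower numbered 2047 with library size alone and 1977 and 1974 on the FPKM scales; with 1 library left out 2312 to 3067 genes were higher and 2563 to 3288 lower. The cause of these shifts was not tested.

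Same-numbered libraries did not deviate together (correlations -0.02, 0.02 and -0.01 for replicates 1, 2 and 3), and the main fit did not pair them. Whether the samples were made in pairs is not stated, and 3 libraries per group cannot settle it. With the replicate block 3127 genes were higher and 3341 lower, the family sum was at 1.84, stress genes called higher were 2, and neighbours were 2 higher and 1 lower.

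Counts of list genes moved as follows. ZnT genes called higher were 1 by DESeq2 and on both FPKM scales, and 1 to 3 with 1 library left out. ZIP genes called higher were 2 on both FPKM scales and with library size alone, and 1 with upper quartile scaling; lower, they were 5 with library size alone and on both FPKM scales, and 5 to 8 with 1 library left out. Copper genes called higher were 0 to 1 with 1 library left out. Stress genes called higher were 1 with DESeq2 size factors, upper quartile scaling and the CPM filter, 2 with library size alone and on both FPKM scales, and 0 to 1 with 1 library left out. Glucocorticoid-induced genes called lower were 1 with library size alone, DESeq2 and both FPKM scales, and 1 to 2 with 1 library left out. Neighbours called higher were 2 with upper quartile scaling, library size alone, the CPM filter and both FPKM scales, and lower 1 with limma-voom; with 1 library left out these were 1 to 2 and 0 to 1. With 1 library left out MT1B, not called, ran from -0.069 (without oeALKBH5 replicate 1) to 0.28 (without control replicate 2), with -0.06 without control replicate 3, and BBS2 at 0.0038 with library size alone. Depth limits MT1H, MT1B and the minor transcripts.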
